A study of Mus musculus with 2 samples.

Results

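Lysosomal proteases were followed in the cells of a mouse melanoma by the transcripts of 10 genes, of 31053 genes counted, in single-cell RNA sequencing (scRNA-seq) of small subcutaneous B16F10 tumours. The genes were chosen by name and comprise a serine carboxypeptidase (Ctsa), an aspartic protease (Ctsd), 7 papain-like cysteine proteases (Ctsb, Ctsc, Ctsh, Ctsk, Ctsl, Ctss and Ctsz) and an asparaginyl endopeptidase (Lgmn). B16F10 is a melanoma line of C57BL/6 origin. The study asked how host Atf4, a transcription factor of the Integrated Stress Response, shapes the cells around the tumour. One library came from Atf4wt/wt hosts (WT) and 1 from Atf4D/D hosts (KO), each pooled from 2 tumours of mice aged 11 weeks. All hosts carried the tamoxifen-inducible Rosa26::CreERT2 recombinase and received tamoxifen, and the KO hosts also carried loxP-flanked Atf4. The deletion was therefore made throughout the host, whereas the injected melanoma cells kept their own Atf4 in both libraries.

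The libraries held 38417113 (WT) and 38290024 (KO) UMIs, unique molecular identifiers that each mark 1 captured RNA molecule, in 6304 and 5474 barcodes. Filters on genes and mitochondrial UMIs kept 3861 and 3557 cells, and 10 barcodes occurred in both libraries, 1 of them among the kept cells. Marker genes assigned cells to gates, with 1394 WT and 1001 KO myeloid cells, 191 and 223 fibroblasts, 1737 and 1821 melanoma cells, and 66 and 22 endothelial cells. All markers of each of these gates were detected in it, and the myeloid cells were divided further into 7 states named after their marker genes. Atf4 stood at 182 and 36.4 counts per 1000000 UMIs of the gate (CPM) in WT and KO myeloid cells, at 254 and 41.4 CPM in fibroblasts, and at 227 and 205 CPM in melanoma cells. The labels describe both pools as male and female, but the WT host gates held 0 UMIs of 4 Y-linked genes, whereas the KO myeloid gate held 168 and the KO fibroblast gate 71. Sex-linked parts of the pools and host genotype therefore cannot be told apart in full, and ratios were also computed within cells in which Xist but no Y-linked gene was seen (Xist cells) and against cells with the converse (Y cells). Because each genotype had 1 library, differences between genotypes could not be tested, and all intervals are at 95% and cover counting error only, not the difference between mice.

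Cathepsins are made as inactive precursors, sorted to endosomes and lysosomes, and activated by the acid there, where they degrade proteins taken up or turned over by the cell. Macrophages are rich in them, and Ctss and Ctsl also trim the invariant chain (Cd74) that guards MHC class II molecules during antigen presentation. Outside the cell several of these enzymes can cut matrix proteins, and cathepsin K is known above all as the collagenase of bone-resorbing osteoclasts.

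On GRCm38 (GENCODE vM21) all 10 are protein-coding genes, and they are spread over 7 chromosomes. Ctsa lies at chr2:164832873-164841032 and Ctsz at chr2:174427493-174439039, Ctsk and Ctss on chromosome 3 (positions given with their levels), Ctsc at chr7:88278085-88310888 and Ctsd at chr7:142375911-142388038. Ctsh lies at chr9:90054152-90076089, Lgmn at chr12:102394084-102439813, Ctsl at chr13:64359337-64370890 and Ctsb at chr14:63122462-63145923.

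Promoter sequence, from 250 bases before to 50 after the RefSeq start on GRCm38.p6, was at hand for 8 of the 10 genes, all but Ctsb and Ctsh. Short windows are shown because each holds a letter pattern tied to a regulator of macrophages, lysosomes or the Atf4 pathway. The pattern TCACGTG, the core of the lysosomal CLEAR element that TFEB-family factors bind, was in the promoters of Ctsa, Ctsd and Lgmn and in 3.77% of 32851 promoters, searched on both strands. Ctsa and Ctsd each held it at a second place as well, and where an A follows it the letters read as the pattern on both strands. It contains the E-box CACGTG, which Ctsl held as well and which was in 7.15% of promoters. Capitals mark the pattern in each window, written 5′ to 3′ on the gene's strand.

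Ctsa (chr2:164833749-164833777, plus strand, pattern starting 13 bases before the start): tgagcaaactgTCACGTGatgcagatgct

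Ctsd (chr7:142387909-142387937, minus strand, 99 bases before the start): tcgcccgcgtcTCACGTGacccgttgagg

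Lgmn (chr12:102439125-102439153, minus strand, 50 bases before the start): tggaatgtctgTCACGTGgtccattttat

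The pattern GAGGAAGT, the core bound by PU.1 (encoded by Spi1), the master factor of the myeloid lineage, was in the promoters of Ctsc and Ctss, on the opposite strand to the gene in both, and in 3.2% of all promoters.

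Ctss (chr3:95526773-95526802, plus strand, 2 bases before the start): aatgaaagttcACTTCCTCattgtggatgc

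Ctsc (chr7:88277923-88277952, plus strand, 151 bases before the start): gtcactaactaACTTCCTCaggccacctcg

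The pattern TGATGNAA, the composite site that Atf4 binds with C/EBP factors, was in 3.97% of all promoters and in 1 of the 8, that of Ctsl, again on the opposite strand. These matches describe letters in the windows only.

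Ctsl (chr13:64370655-64370684, minus strand, 153 bases before the start): tcttcttccacTTACATCAgcattgttgtg

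Myeloid cells carried the most of this RNA. The 10 genes together took 1.63% of all UMIs in WT and 1.60% in KO myeloid cells, 0.263% and 0.279% in fibroblasts, 0.154% and 0.164% in melanoma cells, and 0.172% and 0.174% in endothelial cells. The summed level was thus 10.6-fold higher in myeloid than in melanoma cells in WT and 9.75-fold higher in KO. All 10 genes were 1.5-fold or more higher in myeloid than in melanoma cells in both libraries, whereas 22.9% of all genes tested were so in WT and 21.4% in KO (genes with at least 20 UMIs in the 2 gates together). The median log2 ratio of the 10 genes was 4.33 in WT and 3.90 in KO, against -0.48 and -0.49 over all genes. Against fibroblasts, 8 of the 10 genes were at least 1.5-fold higher in myeloid cells in both libraries, where 28.2% and 27.5% of all genes were, and 1 was lower, where 28.7% and 28.1% were.

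**Figure D1:**
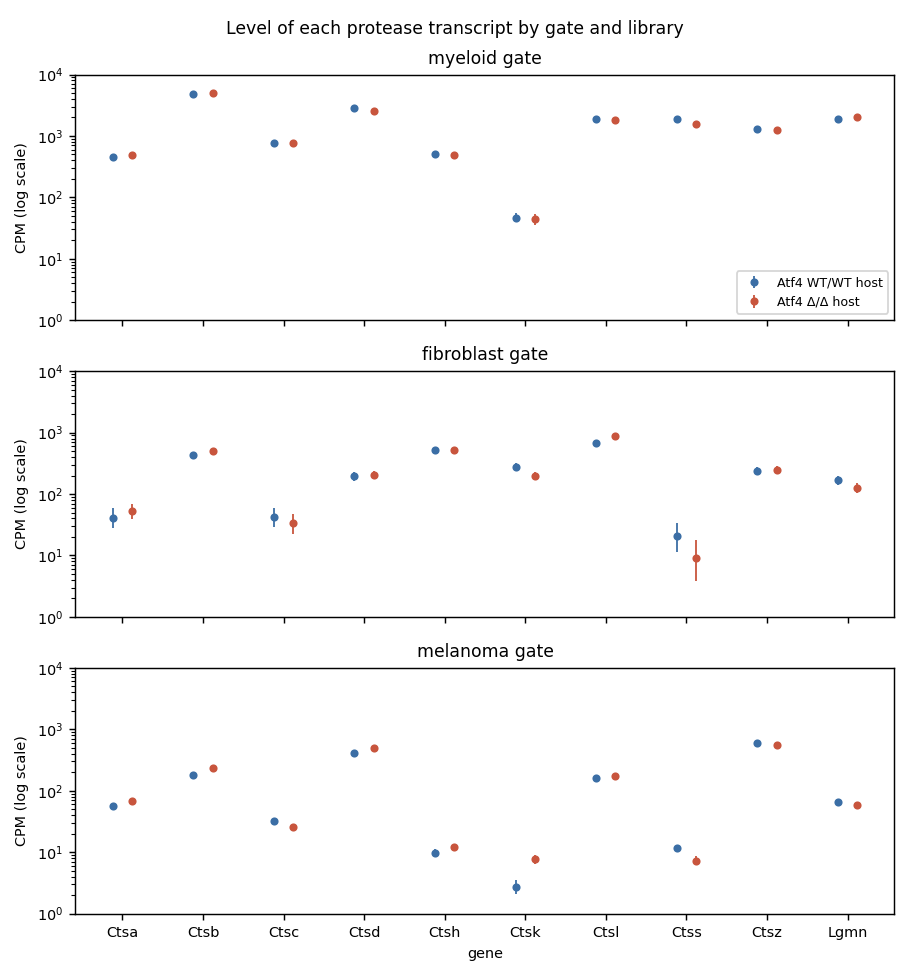
Level of each of the 10 transcripts in the myeloid, fibroblast and melanoma gates, as CPM on a log axis, with 1 point per library and exact Poisson intervals for counting error. Ctss spans the widest range, from 1916 CPM in WT myeloid cells to 11.7 CPM in WT melanoma cells, and Ctsk alone is 1.5-fold or more higher in fibroblasts than in both other gates.

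Ctsb, an abundant cysteine protease that acts both as an endopeptidase and as a peptidyl-dipeptidase, led the myeloid cells with 4803 (WT) and 4997 (KO) CPM. It took 29.4% and 31.2% of the UMIs of the 10 genes there. Ctsd, the main lysosomal aspartic protease, followed with 2834 and 2550 CPM. Lgmn, which cuts after asparagine and helps to mature other cathepsins, stood at 1863 and 2050 CPM, beside Ctsl at 1866 and 1788 CPM. Levels of different genes are set side by side as counts of molecules from a 3′ kit, which do not scale with transcript length.

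Ctss was the gene most restricted to the myeloid gate. Of its UMIs in the 4 gates, 95.8% in WT and 95.4% in KO lay in myeloid cells. It stood at 1916 and 1550 CPM there, at 20.5 and 8.95 CPM in fibroblasts (15 and 8 UMIs) and at 11.7 and 7.26 CPM in melanoma cells (231 and 145 UMIs). After each cell was thinned to 1000 UMIs, 78.8% of WT and 72.4% of KO myeloid cells held a Ctss UMI (89.7% and 84.9% before thinning, at median depths of 1752 and 1710 UMIs). In melanoma cells the shares were 1.23% and 0.781% (7.08% and 4.94% before thinning, at median depths of 11453 and 10901 UMIs), with exact intervals of 0.765 to 1.88% and 0.428 to 1.31%. Thinning left out 198 WT and 170 KO myeloid cells, 34 and 29 melanoma cells and 7 and 11 fibroblasts with fewer UMIs. Free myeloid RNA in droplets can give such UMIs. The 8 myeloid markers stood in melanoma cells at 0.588% (WT) and 0.479% (KO) of their myeloid level, and Ctss at that ratio would make up 96.4% and 102% of what was counted in melanoma cells. The part of free RNA and of doublets in these values was not tested. In fibroblasts the myeloid markers stood at 0.517% and 0.391% of their myeloid level, which would give 48.4% and 67.7% of the Ctss level there, and 8 of the 15 WT UMIs lay in 1 cell.

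Ctsz, a carboxypeptidase, and Ctsd were the proteases of the melanoma cells. Ctsz stood at 602 and 558 CPM in WT and KO melanoma cells and Ctsd at 410 and 496 CPM, and together with Ctsb (183 and 235 CPM) and Ctsl (160 and 171 CPM) they led that gate. Melanoma cells held 19766844 UMIs in WT and 19979295 in KO, and contributed 74.8% and 79.7% of all Ctsz UMIs in the 4 gates and 48.5% and 64.4% of all Ctsd UMIs, although both genes were higher per UMI in myeloid cells. Over all 10 genes, myeloid cells supplied 59.6% and 48.2% of the UMIs and melanoma cells 37.4% and 47.9%. The KO library held fewer myeloid cells, so these shares follow the number of cells and their depth as well as the level in each cell.

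**Figure D2:**
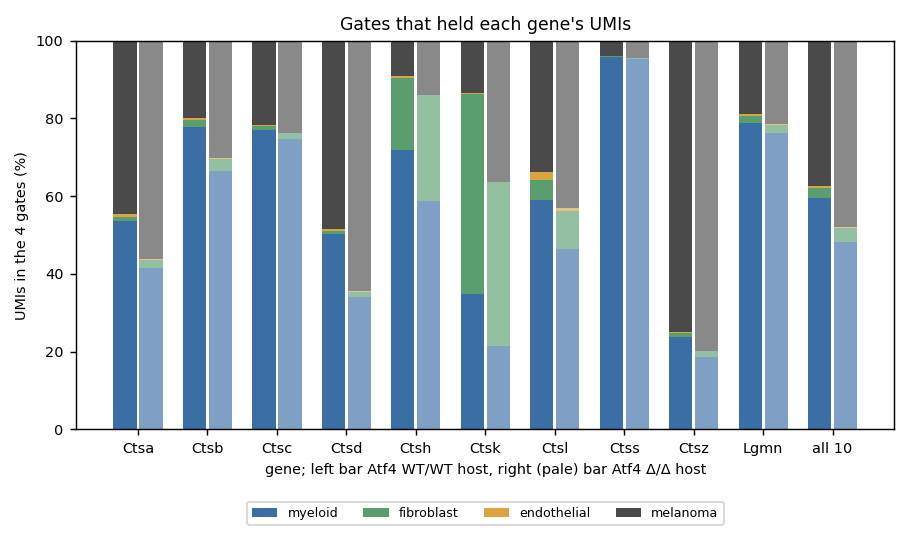
Share of each gene's UMIs held by the 4 gates, as stacked bars to 100%, with the WT library on the left and the KO library on the right (pale) for each gene. Ctss lies almost wholly in myeloid cells, Ctsz mostly in melanoma cells (74.8% and 79.7%), and Ctsk and Ctsh have the largest fibroblast shares.

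The fibroblast gate was led by Ctsl, Ctsh and Ctsb. Ctsl stood at 684 (WT) and 881 (KO) CPM. Ctsh, an aminopeptidase, stood at 523 and 528 CPM, and Ctsb at 435 and 506 CPM. Ctsh stood at 504 and 492 CPM in myeloid cells, with log2 ratios of myeloid over fibroblast of -0.05 (-0.22 to 0.11) in WT and -0.10 (-0.26 to 0.06) in KO, intervals that held 0, and at 9.61 and 12.0 CPM in melanoma cells. Ctsk was the 1 gene of the 10 that was 1.5-fold or more higher in fibroblasts than in myeloid cells, at 280 against 46.9 CPM in WT and 196 against 43.6 CPM in KO. These are log2 ratios of myeloid over fibroblast of -2.58 (-2.90 to -2.26) and -2.17 (-2.55 to -1.79). Ctsk UMIs were found in 58.1% of WT and 44.8% of KO fibroblasts and in 25% and 15.1% after thinning to 1000 UMIs (median depths of 3720 and 3717 UMIs before). The thinned shares were 0.117% (0.0142 to 0.424%) and 1.0% (0.596 to 1.58%) in melanoma cells and 3.34% and 2.17% in myeloid cells. In endothelial cells they were 0 of 64 and 0 of 20 cells, and 3 cells, the limit used for a count of 0, would be 4.69% and 15% of them. Before thinning, the WT endothelial gate held 1 Ctsk UMI. Ctsk and Ctss are neighbours on chromosome 3, Ctsk at 95499256 to 95509362 and Ctss at 95526786 to 95556403 of GRCm38, both on the plus strand and 17424 bases apart, and most of their UMIs lay in different gates.

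Fibroblasts were at least 1.5-fold above melanoma cells for 6 of the 10 genes in WT and 5 in KO (28.7% and 25.5% of all genes), and at least 1.5-fold below them for 2 in both (37.0% and 37.9%). The 2 lower genes were Ctsd and Ctsz. Ctsc, the dipeptidyl peptidase that activates granule serine proteases, and Ctsa, which also protects lysosomal sialidase and galactosidase, were low in fibroblasts, at 42.3 and 33.6 CPM and at 40.9 and 52.6 CPM.

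In the 7 myeloid states, the summed level was lowest in the Ly6c2/Chil3 monocyte state, at 8303 (WT) and 8963 (KO) CPM, and next lowest in the MHC class II state, at 10945 and 9310 CPM. It was highest in the Vcam1/C1q-high state, at 20869 and 18601 CPM, and the ranges of the 2 libraries overlapped between that state, the Arg1 hypoxic state (19818 and 17423 CPM) and the Lyve1/Cd163 resident state (17346 and 18259 CPM). Cells of the monocyte state were also the shallowest, with medians of 1085 and 1044 UMIs, against 2710 and 2278 in the Vcam1/C1q-high state, and the part of depth in this order was not tested.

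Ctsb, Ctsd and Lgmn were all lowest in monocytes. Ctsb went from 1487 and 1645 CPM there to 6420 and 6037 CPM in Vcam1/C1q-high cells, and in the KO library it was higher still in Lyve1/Cd163 resident cells (5614 and 6369 CPM). Ctsd went from 619 and 778 CPM in monocytes to 4150 and 3519 CPM in Vcam1/C1q-high cells. Lgmn went from 686 and 850 CPM to 2460 and 2597 CPM. In Vcam1/C1q-high cells 6 of 10 genes were 1.5-fold or more above monocytes in WT (28.2% of all genes) and 5 of 9 in KO (26.3%), Ctsk having too few UMIs to be counted in KO. Ctsl differed in direction between the libraries here, with log2 ratios over monocytes of 1.75 (1.53 to 1.98) in WT and -0.48 (-0.70 to -0.26) in KO.

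**Figure D3:**
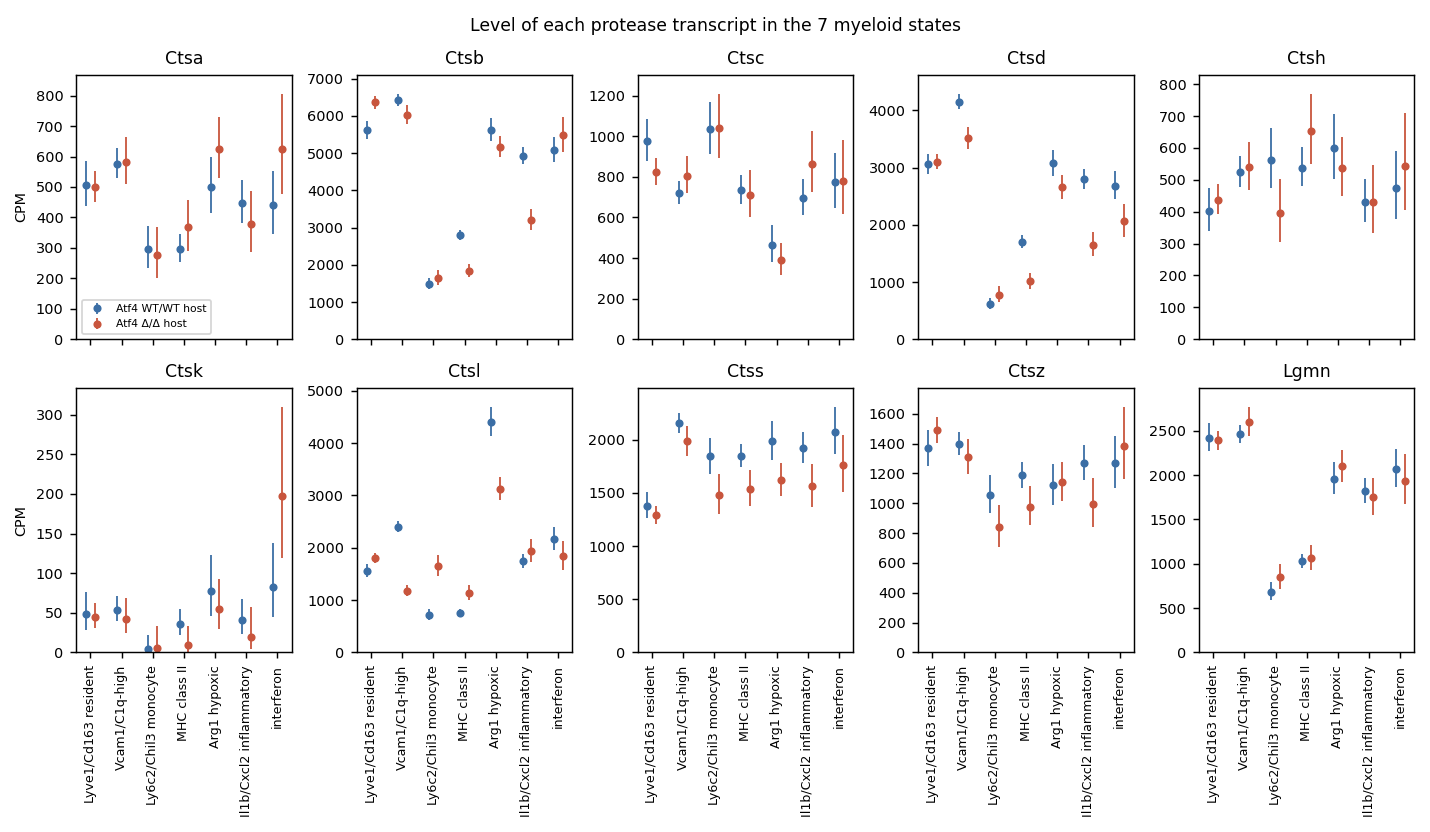
Level of each of the 10 transcripts in the 7 myeloid states, as CPM on linear axes that start at 0, with 1 point per library and exact Poisson intervals. Ctsb, Ctsd and Lgmn are lowest in the Ly6c2/Chil3 monocyte state, Ctsc is highest there, and Ctsl peaks in the Arg1 hypoxic state in both libraries.

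Other members had other orders. Ctsl, a strong endopeptidase, peaked in the Arg1 hypoxic state in both libraries, at 4404 and 3127 CPM. Ctsc was instead highest in monocytes (1035 and 1041 CPM), where Ctsb was lowest, and was lowest in Arg1 hypoxic cells (466 and 390 CPM). Ctss varied little, from 1381 and 1291 CPM in Lyve1/Cd163 resident cells, the lowest state in both libraries, to 2157 and 1985 CPM in Vcam1/C1q-high cells. Ctsz lay between 838 and 1490 CPM and Ctsh between 395 and 652 CPM over all states and both libraries, and for Ctsh the ranges of neighbouring states overlapped throughout. Ctsk was at 1 UMI in monocytes of either library, and its highest value, 198 CPM in the KO interferon state, rested on 19 UMIs in 2 cells. It was 82.1 CPM in the WT interferon state, on 14 UMIs of which 7 lay in 1 cell, and this was the 1 gene of 10 past 1.5-fold in that state (14.2% of all genes were higher).

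Host genotype was compared gate by gate. In the myeloid gate the 10 genes together stood at 16321 (WT) and 15993 (KO) CPM, which is a log2 KO/WT ratio of -0.03 (-0.05 to -0.01). None of the 10 was past 1.5-fold in either direction, where 17.9% of 9361 genes tested were. Among genes with at least 100 UMIs, as each of the 10 had in this gate, 9.08% of 5317 were. The median of the 10 was -0.02, and -0.02 over all genes as well. The member furthest from 0 was Ctss, 1916 and 1550 CPM (log2 ratio -0.31, -0.37 to -0.24). Ctsd was at -0.15 (-0.20 to -0.10), Lgmn at 0.14 (0.08 to 0.20) and Ctsb at 0.06 (0.02 to 0.09). For Ctsa, Ctsc, Ctsh, Ctsk and Ctsz the interval held 0. Some of these ratios differed between the sex-linked parts of the KO pool, each set against the WT Xist cells. The myeloid gate held 899 WT Xist cells, 103 KO Xist cells and 144 KO Y cells. Neither kind of UMI was seen in 495 WT and 751 KO cells, and the part of depth in this split was not tested. Ctsh was at -0.56 (-0.89 to -0.24) in KO Xist cells and 0.03 (-0.20 to 0.26) in KO Y cells. In the same order Ctsc was at -0.20 (-0.43 to 0.03) and 0.30 (0.12 to 0.47), and Ctsd at -0.33 (-0.45 to -0.21) and -0.03 (-0.12 to 0.06). Markers of other cells in this gate summed to 38.1 and 125 CPM for neutrophils (5 of 6 seen), 39.1 and 10.2 CPM for dendritic cells (6 and 7 of 7 seen) and 67.4 and 0.97 CPM for red cells (4 and 2 of 4 seen), and their part in these ratios was not tested.

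**Figure D4:**
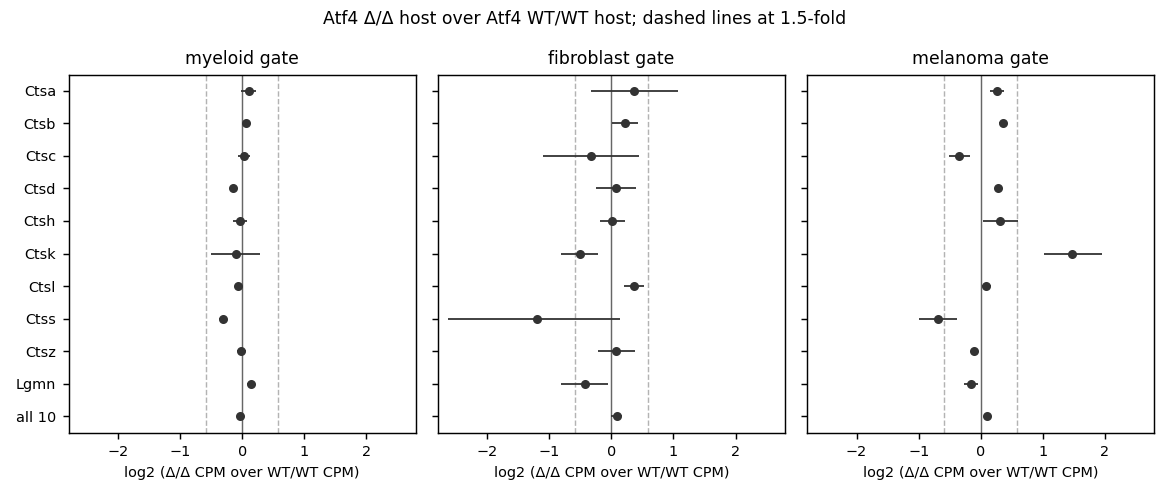
Log2 ratio of CPM in the KO library over the WT library for each gene and for all 10 together, in 3 gates, with exact conditional binomial intervals and dashed lines at 1.5-fold. Myeloid values lie within 0.31 of 0, Ctsk and Ctsl go opposite ways in fibroblasts, and Ctsk in melanoma cells lies at 1.48.

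Ctss was lower in the KO library in 7 of the 7 states, by log2 ratios from -0.31 to -0.10, and 4 of the 7 intervals lay off 0. The levels in WT and KO were 1844 and 1484 CPM in monocytes, 1849 and 1539 CPM in MHC class II cells, 1988 and 1621 CPM in Arg1 hypoxic cells, 1921 and 1561 CPM in Il1b/Cxcl2 inflammatory cells and 2077 and 1761 CPM in interferon cells. Ctss passed 1.5-fold in none of them. With each state given its WT share of the UMIs, the myeloid Ctss ratio was -0.20, and with the KO shares -0.19. It was -0.31 with the states in their own shares. Other members moved with the mix of states too, over the cells that were given a state. With the WT shares Ctsb turned from 0.06 to -0.14, Ctsd went from -0.17 to -0.30, Ctsl from -0.08 to -0.25 and the sum of the 10 from -0.03 to -0.14. With the KO shares these were -0.01, -0.18, -0.14 and -0.07. The KO library held more Lyve1/Cd163 resident cells (240 against 124) and fewer Vcam1/C1q-high cells (154 against 309). The gate-wide Ctss ratio was -0.46 (-0.62 to -0.31) among Xist cells and -0.41 (-0.54 to -0.28) for the KO Y cells against the WT Xist cells. Among the Xist cells of the Vcam1/C1q-high state, 10 of them KO, it was 0.10 (-0.30 to 0.48). Among those of the interferon state, 3 of them KO, it was 0.80 with an interval that held 0. For the KO Y cells it was 0.02 (-0.44 to 0.44) in the Il1b/Cxcl2 state (11 Y cells). In the interferon state (6 Y cells) it was 0.29 (-0.29 to 0.83), and in the other states it was below 0. The gate-wide ratio was also below 0 in each of 3 depth ranges, at -0.20, -0.37 and -0.44 for cells with 500 to 2000, 2000 to 5000 and over 5000 UMIs. Within single states it was not below 0 at every depth. It was 0.05 (-0.19 to 0.28) in MHC class II cells and 0.08 (-0.24 to 0.38) in Il1b/Cxcl2 cells of 1000 to 2000 UMIs, and 0.00 (-0.26 to 0.27) in Arg1 hypoxic cells of 2000 to 5000 UMIs.

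Ctsl had a gate-wide ratio near 0 (-0.06, -0.12 to -0.00) over states that went opposite ways. In Vcam1/C1q-high cells it stood at 2405 (WT) and 1181 (KO) CPM, with a ratio of -1.03 (-1.18 to -0.88), and in Arg1 hypoxic cells the ratio was -0.49 (-0.63 to -0.36). In monocytes it stood at 714 and 1651 CPM, or 1.21 (0.93 to 1.49). In MHC class II cells it stood at 762 and 1139 CPM, or 0.58 (0.35 to 0.81). Ctsl was the 1 gene of 10 that was 1.5-fold or more lower in Vcam1/C1q-high cells, where 12.6% of all genes were. It was also the 1 gene of 9 past 1.5-fold in monocytes, where 30.1% of all genes were past it either way. In Lyve1/Cd163 resident and Arg1 hypoxic cells 0 of 10 genes were past it, where 25.9% and 23.6% of all genes were.

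Both of these Ctsl differences moved with features of the cells. In the Vcam1/C1q-high state Ctsl was at 2447 CPM in the 246 WT Xist cells and at 2596 CPM in the 10 KO Xist cells, while the 22 KO Y cells were at 721 CPM. Within the KO library the Y cells thus differed from the Xist cells by -1.85 (-2.43 to -1.27) on the log2 scale, and the Xist cells of both libraries by 0.09 (-0.29 to 0.44). The remaining 122 KO cells of that state carried neither transcript. A gap within the KO library was also seen in the Il1b/Cxcl2 state, at 3086 CPM in 13 Xist cells and 1422 CPM in 11 Y cells. It went the other way in the interferon state, at 200.1 CPM in 3 Xist cells and 3565 CPM in 6 Y cells, and in Arg1 hypoxic cells the Y cells lay at 0.30 (-0.11 to 0.71) over the Xist cells. In monocytes these parts of the KO library were closer, at 2077 CPM (17 cells) and 1915 CPM (22 cells), against 789 CPM in 115 WT Xist cells.

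Depth moved with Ctsl as well. Monocytes of 500 to 1000 UMIs had a KO/WT ratio of 0.73 (0.06 to 1.41) and those of 1000 to 2000 UMIs one of 1.30 (0.98 to 1.62). Of the WT monocytes 0 and of the KO monocytes 5 had 2000 UMIs or more, and when states were assigned anew among cells with 2000 to 10000 UMIs, 24 WT and 21 KO cells came to the monocyte state and the ratio was -0.28. In Vcam1/C1q-high cells it was -0.91 at 1000 to 2000 UMIs and -0.85 at 2000 to 5000. Over the whole gate the ratio was 0.59 in cells with 500 to 2000 UMIs, -0.20 in those with 2000 to 5000 and -0.57 above. The part of depth and of the pooled mice in these ratios was not tested further.

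**Figure D5:**
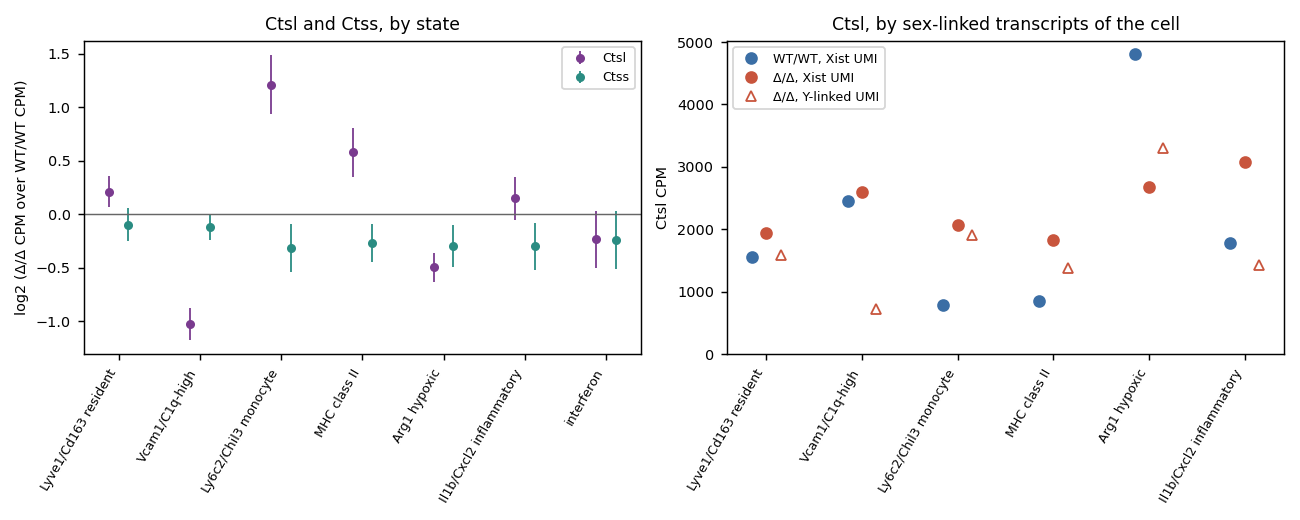
Left, log2 ratio of CPM in the KO over the WT library for Ctsl and Ctss in the 7 myeloid states, with exact conditional binomial intervals. Right, Ctsl CPM by the sex-linked transcripts of the cells in 6 states (the interferon state, with 3 Xist and 6 Y cells in the KO library, is not drawn), where the Vcam1/C1q-high state has KO Y cells at 721 CPM and KO Xist cells at 2596 CPM, beside WT Xist cells at 2447 CPM.

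Ctsb and Ctsd were both 1.5-fold or more lower in the KO library in 2 states. In MHC class II cells Ctsb was at 2801 (WT) and 1837 (KO) CPM, a ratio of -0.61 (-0.77 to -0.45), and Ctsd at 1708 and 1010 CPM, -0.76 (-0.97 to -0.55). In Il1b/Cxcl2 inflammatory cells Ctsb was at 4924 and 3214 CPM, -0.62 (-0.76 to -0.47), and Ctsd at 2800 and 1652 CPM, -0.76 (-0.96 to -0.56). In the MHC class II state 3 of 10 genes were 1.5-fold or more lower, the third being Ctsk with 21 and 2 UMIs, where 18.9% of all genes were. In the Il1b/Cxcl2 state these 2 of the 9 genes with enough UMIs were, where 15.4% of all genes were.

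In MHC class II cells both differences lay in the deeper cells. At 1000 to 2000 UMIs the ratio was -0.15 (-0.36 to 0.06) for Ctsb and 0.25 (-0.06 to 0.56) for Ctsd, and at 2000 to 5000 UMIs, where the KO library had 17 cells and WT 95, it was -1.06 (-1.44 to -0.70) and -0.91 (-1.33 to -0.52). In Il1b/Cxcl2 cells the ratios at these depths were -0.49 and -0.41 for Ctsb and -0.18 and -0.60 for Ctsd. Among Xist cells both genes were below 0 as well. In MHC class II cells (185 WT and 9 KO cells) Ctsb was at -0.81 (-1.39 to -0.28) and Ctsd at -0.40, with an interval that held 0 (-1.04 to 0.17). In Il1b/Cxcl2 cells (106 and 13 cells) they were at -0.82 (-1.19 to -0.47) and -0.69 (-1.15 to -0.26). Both genes were also lower, by less than 1.5-fold, in Vcam1/C1q-high cells (Ctsb -0.09, -0.16 to -0.02, and Ctsd -0.24, -0.33 to -0.15) and in Arg1 hypoxic cells (-0.12, -0.23 to -0.01, and -0.21, -0.37 to -0.06). In Arg1 hypoxic cells the direction for Ctsd differed between the sex-linked parts of the KO pool. Against the WT Xist cells, Ctsd was at -0.63 (-0.998 to -0.28) in the 15 KO Xist cells. In the 13 KO Y cells it was at 0.53 (0.26 to 0.79). Within the KO library the Y cells lay at 1.16 (0.75 to 1.58) over the Xist cells. For Ctsb there, both intervals against the WT Xist cells held 0. Over all their cells, Lyve1/Cd163 resident cells differed in direction, with Ctsb at 0.18 (0.11 to 0.26).

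In fibroblasts the summed level was 2627 (WT) and 2787 (KO) CPM, for a log2 ratio of 0.09 (-0.00 to 0.17). Of the 10 genes 1 was 1.5-fold or more lower (15.8% of 7226 genes) and 0 were higher (13.2%). The 1 gene past the fold was Ctss, whose 15 and 8 UMIs gave an interval that held 0 (-2.64 to 0.14). Within the set, Ctsk and Ctsl went opposite ways. Ctsk was at 280 CPM in WT (205 UMIs in 111 of 191 cells) and 196 CPM in KO (175 UMIs in 100 of 223 cells), a ratio of -0.51 (-0.81 to -0.22). Ctsl was at 684 and 881 CPM, a ratio of 0.37 (0.20 to 0.53), and Lgmn was at 168 and 124 CPM, -0.43 (-0.82 to -0.05). The 10 fibroblast markers themselves summed to 49163 (WT) and 35972 (KO) CPM in this gate, and their part in these differences was not tested. Among Xist cells (151 WT and 56 KO) the ratios were -0.44 (-0.99 to 0.07) for Ctsk and 0.26 (-0.02 to 0.52) for Ctsl, with intervals that held 0. Ctsb was at 0.22 (0.01 to 0.43) over all fibroblasts. Against the WT Xist cells it was at 0.46 (0.14 to 0.77) for the KO Xist cells. For the 50 KO Y cells it was at -0.25, with an interval that held 0 (-0.59 to 0.08). Within the KO library the Y cells differed from the Xist cells by -0.70 (-1.10 to -0.31).

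In melanoma cells, whose own Atf4 was intact, the summed level was 1535 (WT) and 1640 (KO) CPM, which gives 0.10 (0.07 to 0.12). Of the 10 genes 1 was 1.5-fold or more higher (8.82% of 12259 genes) and 1 lower (4.75%). The lower gene was Ctss, whose levels in both libraries lay near those the myeloid markers would carry over. The higher gene was Ctsk, at 2.73 CPM (54 UMIs in 50 cells) in WT and 7.61 CPM (152 UMIs in 131 cells) in KO, a ratio of 1.48 (1.02 to 1.95), with at most 3 UMIs in any cell, and it lay between 1.35 and 2.01 under 11 other settings. The 10 fibroblast markers stood in melanoma cells at 0.174% (WT) and 0.270% (KO) of their fibroblast level, and Ctsk at that ratio would give 17.8% and 6.96% of what was counted. The melanoma markers themselves summed to 13247 and 10423 CPM in this gate, and their part in the difference was not tested. Ctsb was at 183 and 235 CPM, 0.36 (0.29 to 0.42), Ctsd at 410 and 496 CPM, 0.28 (0.23 to 0.32), and Ctsa at 57.0 and 68.6 CPM, 0.27 (0.15 to 0.38). Ctsz was at -0.11 (-0.15 to -0.07), Lgmn at -0.16 (-0.27 to -0.05) and Ctsc at -0.34 (-0.52 to -0.17). In endothelial cells, where KO held 22 cells, the summed level was 1718 and 1740 CPM, 0.02 (-0.24 to 0.27), led by Ctsl at 624 and 600.5 CPM and Ctsb at 422 and 458 CPM.

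The genes around the proteases were taken from 8 lists of lysosomal genes, 79 of which were used here. With enough UMIs for a ratio were 70 in myeloid cells, of which 3 were 1.5-fold or more higher and 6 lower, 54 in fibroblasts (5 higher and 9 lower) and 68 in melanoma cells (4 higher and 6 lower). Over all genes tested, 8.52% were higher and 9.34% lower in myeloid cells (the background of each myeloid count that follows), 13.2% and 15.8% in fibroblasts, and 8.82% and 4.75% in melanoma cells. Of the proton pump that acidifies the lysosome, 0 of 16 subunits in myeloid cells were 1.5-fold higher (8.52% of all genes) and 1 was lower (9.34%), with a median log2 KO/WT ratio of 0.03. The lower one was Atp6v0d2, a subunit known from osteoclasts and macrophages, at 119 (WT) and 46.5 (KO) CPM, -1.36 (-1.70 to -1.03). Of 20 other lysosomal hydrolases 1 was higher, Sgsh on 17 and 28 UMIs, and 1 lower (median -0.05). Lipa, the acid lipase, was the lower one at 285 and 177 CPM, -0.68 (-0.86 to -0.50). None of 6 other lysosomal peptidases was past the fold (median 0.06). Of 14 membrane and sorting genes 0 were higher and 1 lower, Gnptg on 65 and 29 UMIs (median 0.01), with Grn, the precursor of granulins, at 1198 and 1535 CPM, and M6pr, a sorting receptor for lysosomal enzymes, at 166 and 118 CPM. Of 6 regulators, Tfec was the 1 higher at 22.6 and 38.3 CPM and Tfeb the 1 lower at 17.9 and 9.70 CPM, on 53 and 20 UMIs.

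Of 9 cystatin genes, 3 had enough UMIs in myeloid cells and 1 was past the fold, Cst6 at 9.44 and 18.4 CPM. Cst6 was higher in melanoma cells, as given below. The melanoma markers stood in myeloid cells at 7.10% (WT) and 6.95% (KO) of their melanoma level. The part of melanoma RNA in the myeloid Cst6 values was not tested. Cst7 had 5 and 6 UMIs there. Cst3, the secreted cystatin C that blocks cathepsins, stood at 1903 (WT) and 1530 (KO) CPM, -0.31 (-0.38 to -0.25), while the intracellular inhibitor Cstb stood at 1345 and 1349 CPM. Among 5 other cathepsin genes, 2 had enough UMIs in myeloid cells and 0 of them were past the fold. In fibroblasts 2 had enough UMIs and both were 1.5-fold or more lower (15.8% of all genes). In melanoma cells 1 of 2 was higher (8.82%) and 1 lower (4.75%). Of 4 processing partners, 3 were analysed and 2 were at least 1.5-fold lower in myeloid cells, where 9.34% of all genes were. They were H2-DMa and H2-DMb1, which load peptides on MHC class II, at 179 and 110 CPM and at 201 and 110 CPM, and Cd74 itself was at 2845 and 2084 CPM, -0.45 (-0.50 to -0.40). The KO library held fewer cells of the MHC class II state, 155 against 318, and in sums over a gate fewer such cells and less RNA per cell cannot be told apart. In melanoma cells Cst6, another cystatin, was at 97.1 and 179 CPM, 0.88 (0.80 to 0.96), and Mitf, the melanocyte factor of the TFEB family, at 533 and 346 CPM, -0.62 (-0.67 to -0.58). The 3 processing partners were lower there too, and Cd74 among them was at 23.8 and 15.3 CPM. Myeloid markers in melanoma cells stood at 0.588% and 0.479% of their myeloid level. In fibroblasts Cstb was at 319 and 475 CPM, 0.57 (0.34 to 0.81), and Lamp2, a lysosomal membrane protein, at 261 and 167 CPM, -0.64 (-0.96 to -0.33).

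Genes with the most similar pattern were ranked over 20 points, which were the 7 states and the 3 gates of fibroblasts, melanoma and endothelial cells in each library, by Pearson's r of log2(CPM + 10) among 9881 genes. Nearest to Ctsk were Pdpn (r = 0.89), Lgals1 (0.85) and Gsn (0.85). Nearest to Ctss were Fcer1g (0.99), itself one of the myeloid gate markers, Rac2 (0.99) and Spi1 (0.99). Nearest to the sum of the 10 were Cd84, Tmem106a and Psap, the saposin precursor (all 0.98). The points share libraries and differ in depth, so these values describe likeness only.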

How the data were processed

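Single cells of 1 WT and 1 KO library were analysed from matrices of raw UMI counts per gene and cell, which the authors deposited. Per the labels, the authors made these counts with Cell Ranger 3.1.0 on GRCm38. Labels and methods name different versions of the 10x kit. The members and gene lists were chosen with earlier results of these data known. The gate cut-offs were set on marker genes alone.

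The study's filters were applied (200 to 5000 genes, mitochondrial share up to 7.5%). A cell entered a gate if its markers made up at least 40 of 10000 UMIs (15 for endothelial cells), with 3 or more myeloid or 4 or more other markers seen. Smaller gates took out T/NK, dendritic and red cells and neutrophils. Cells passing several gates (131 WT and 43 KO) or none (265 and 426) were left out, and no doublet caller was used. Within a factor of 1.25 of the myeloid cut-off, 44 WT and 37 KO cells lay above it and 46 and 35 below. Each myeloid cell took the state with the highest mean standardised marker level, with at least 2 markers seen. No state was given to 60 WT and 17 KO cells, and the best state led the next by under 0.1 in 123 and 67.

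UMIs were summed per gate and library and divided by the gate's total. Intervals are exact (Poisson for levels, Clopper-Pearson for shares, conditional binomial for ratios, 95%). Fold counts used genes with at least 20 UMIs in both groups together, with 0 set to 3 counts, as was the limit for shares of 0. Of the lists, at most 2 genes per gate with at least 100 UMIs were named by the size of their ratio, with Cst3, Cstb, Cst7, Mitf and Tfeb. Genes named beyond these, the motifs, the depth and state-mix comparisons and the spread of Ctsk and Ctss over cells were chosen after the values were seen. Ifi30 was not used here. The values of 1 listed gene are not reported here. Positions come from GENCODE vM21 and promoters from RefSeq, both GRCm38. Gm49369, Gm49230 and Hmgb1-ps5 overlap Ctsd, Ctsl and Ctss on the same strand, so reads may be shared. Python 3.11.15, numpy 2.4.6 and scipy 1.17.1 were used, and the ratios were tested on simulated counts.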

Additional observations from a re-analysis of the deposited data

Results flagged for a closer look

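The Ctsl transcript was singled out because its difference between the libraries went opposite ways in 2 myeloid states past 1.5-fold, with both intervals off 0. The log2 KO/WT ratio was -1.03 in Vcam1/C1q-high cells and 1.21 in Ly6c2/Chil3 monocytes. The difference between the states was not tested, since each genotype had 1 library. In the Vcam1/C1q-high state the ratio among cells with Xist but no Y-linked UMIs was 0.09 (10 KO cells), and in the monocyte state it was -0.28 when states were assigned among cells with 2000 to 10000 UMIs.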

How the results depend on the processing

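No paired analysis was possible because the WT and KO groups held a single library each. Of the 78 values of the summed level and of counts over all genes under other settings, 45 were taken as the same and 33 as moved. A summed level was taken as moved if it left the main interval for counting error. A count of genes was taken as moved if it changed by more than 1.5-fold, as all 3 counts did. With gate cut-offs doubled, the summed log2 KO/WT ratio was -0.062 in myeloid cells, -0.088 in fibroblasts (from 0.09) and 0.13 in melanoma cells, and among Xist cells it was -0.079 in the myeloid gate. In melanoma cells it was 0.22 in cells with 2000 to 10000 UMIs, 0.12 as a mean over cells and 0.059 with TMM scaling. The summed log2 ratio of myeloid over melanoma cells was 3.41 in WT and 3.29 in KO. It became 3.45 (WT) with cut-offs halved, 3.23 (KO) with them doubled, 3.36 and 3.25 without the 5% of cells with most UMIs, 3.30 and 3.15 when mitochondrial and ribosomal protein genes were left out, 3.66 and 3.39 at 2000 to 10000 UMIs, and 3.16 and 3.03 as a mean over cells. With free RNA subtracted it was 3.65 and 3.51 (whole-library profile) or 3.60 and 3.45 (per source gate, an alternative chosen after seeing the data). Fibroblast over melanoma was 0.78 and 0.77. It became 0.90 and 0.68 with cut-offs doubled, 0.69 and 0.69 when those genes were left out, 0.90 and 0.89 or 0.85 and 0.83 with free RNA subtracted in these ways, and 0.68 (KO) at 2000 to 10000 UMIs. With at least 100 UMIs, genes past 1.5-fold between genotypes numbered 483 of 5317 (myeloid), 429 of 2366 (fibroblast) and 821 of 10149 (melanoma), against 1672, 2095 and 1663 with at least 20.

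Of 1257 values of single members and of states, 979 were taken as the same and 260 as moved by the main interval. Among these, 34 lay across 0 from a ratio whose interval held 0. The 1257 include shares of cells with a UMI at another thinning depth, which have no direction. The remaining 18 turned direction against a ratio whose interval lay off 0, and are given next. Ctsl in the myeloid gate was 0.039 without the deepest 5%, 0.18 as a mean over cells and 0.11 among Xist cells. Ctsl was -0.025 without the deepest 5% and -0.22 with overlapping states in Lyve1/Cd163 resident cells, 0.086 among Xist cells in Vcam1/C1q-high cells, and -0.28 in monocytes and -0.078 in MHC class II cells at 2000 to 10000 UMIs. Ctsb was -0.19 in fibroblasts with cut-offs doubled, 0.017 in Vcam1/C1q-high and 0.016 in Arg1 hypoxic cells with overlapping states, and 0.063 in Arg1 hypoxic cells at 2000 to 10000 UMIs. Ctsd was 0.0052 in Vcam1/C1q-high cells at 2000 to 10000 UMIs and 0.023 in interferon cells without the deepest 5%. In melanoma cells Ctsh was -0.020 as a mean over cells and Lgmn 0.040 at 2000 to 10000 UMIs. The sum was -0.026 in Lyve1/Cd163 resident cells with overlapping states and -0.094 in monocytes at 2000 to 10000 UMIs. The causes were not tested. Where subtraction left no UMIs no value was obtained, and no replicate could be left out.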
